A study of Mus musculus with 20 samples.

Results

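The mast cell protease and receptor genes comprised 10 genes, Cpa3, Mcpt4, Cma1, Tpsb2, Tpsab1, Kit, Ms4a2, Fcer1a, Hdc and Gata2, chosen by symbol out of 22090 gene symbols in the count table. All 10 were present, and all 10 passed the filter on low counts in each of the 3 comparisons. RNA-seq had been performed on 20 skin tissues of female SKH-1 hairless mice, with 8 normal skin (NS), 8 actinic keratosis (AK) and 4 cutaneous squamous cell carcinoma (cSCC) tissues. Of 8 mice, 4 were irradiated repeatedly with ultraviolet light to raise the lesions and 4 were not. The mice were 7 months old when supplied, and the tissues were taken after the months of irradiation, so that the animals were older by then. NS tissues came from both arms, whereas AK and cSCC tissues came from the irradiated mice only, so that every lesion carries the irradiation as well as the lesion. The labels give neither the mouse nor the arm of a tissue. Since the 8 AK tissues came from 4 mice, samples of a group are not all independent and p-values may be too small. The labels and the paper give no transgene, and each sample is bulk tissue in which mast cells are a minority.

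Mast cells are resident cells of the dermis that store proteases and histamine in granules and release them when IgE bound to the high-affinity receptor FcεRI is cross-linked. The proteases are of 3 kinds. Cpa3 encodes mast cell carboxypeptidase A, Cma1 and Mcpt4 encode chymases, and Tpsb2 and Tpsab1 encode tryptases (mouse mast cell protease 6 and 7). Fcer1a and Ms4a2 encode the α and β chains of FcεRI, and Kit encodes the receptor of stem cell factor, on which mast cells depend for growth and survival. Hdc encodes histidine decarboxylase, the enzyme that makes histamine, and Gata2 encodes a transcription factor of the GATA family needed for mast cell development. Several of these genes are not restricted to mast cells: Kit is also used by melanocytes, Gata2 by endothelial cells, Fcer1a and Ms4a2 by basophils, and Hdc by basophils and neutrophils.

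All 10 are protein-coding genes, and some lie near each other. On GRCm38, in the GENCODE M21 annotation, the chymase genes both lie on chromosome 14, Cma1 at chr14:55941451-55944675 and Mcpt4 at chr14:56059629-56062313, and the tryptase genes on chromosome 17, Tpsab1 at chr17:25343245-25345562 and Tpsb2 at chr17:25366305-25369098. Cpa3 lies at chr3:20215620-20242181, Hdc at chr2:126593667-126619299, Kit at chr5:75574916-75656722, Fcer1a at chr1:173221284-173227214, Ms4a2 at chr19:11615523-11623719 and Gata2 at chr6:88193891-88207032.

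Sequences before the start site are shown for 3 protease genes that varied together across normal skin, Cpa3, Cma1 and Mcpt4, and for Hdc, the gene that differed most between cSCC and the other groups. RefSeq promoter windows on GRCm38.p6 were found for 8 of 10 genes, and not for Tpsb2 and Tpsab1. The letters AGATAA or AGATAG and also TGATAA or TGATAG, which a GATA factor can bind, were searched on both strands in windows from 250 bases before to 50 bases after the start. Of the 8 genes, 6 held such a site (Cpa3, Mcpt4, Cma1, Ms4a2, Fcer1a and Hdc), and Kit and Gata2 held none. Counted by window, 6 of the 10 windows of these genes held one, where 29.8% of all 32851 RefSeq windows of the same length did. The letters TATAAA, searched on the strand of the gene, occurred in 3 of the 8 (Cpa3, Mcpt4 and Fcer1a) each in 1 window, and in 8.32% of all windows. A match of letters was not tested for binding. Only the 250 bases before the start are printed, 5′ to 3′ on the minus strand, with the GATA letters in capitals. They lie at chr3:20242182-20242431 for Cpa3, chr14:55944676-55944925 for Cma1, chr14:56062311-56062560 for Mcpt4 and chr2:126618679-126618928 for Hdc.
Cpa3: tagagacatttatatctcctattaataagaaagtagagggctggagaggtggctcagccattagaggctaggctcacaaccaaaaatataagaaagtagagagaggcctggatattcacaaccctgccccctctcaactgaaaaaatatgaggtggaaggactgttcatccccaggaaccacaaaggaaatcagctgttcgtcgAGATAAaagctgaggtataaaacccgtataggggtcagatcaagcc
Cma1: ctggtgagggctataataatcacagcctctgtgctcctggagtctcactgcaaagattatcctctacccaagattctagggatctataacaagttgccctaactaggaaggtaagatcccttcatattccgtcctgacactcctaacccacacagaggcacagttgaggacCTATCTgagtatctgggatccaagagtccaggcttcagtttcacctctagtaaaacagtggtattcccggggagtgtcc
Mcpt4: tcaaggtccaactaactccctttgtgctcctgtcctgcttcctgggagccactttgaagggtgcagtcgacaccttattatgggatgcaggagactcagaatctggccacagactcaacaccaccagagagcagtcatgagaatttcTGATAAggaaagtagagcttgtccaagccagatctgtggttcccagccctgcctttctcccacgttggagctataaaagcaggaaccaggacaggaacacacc
Hdc: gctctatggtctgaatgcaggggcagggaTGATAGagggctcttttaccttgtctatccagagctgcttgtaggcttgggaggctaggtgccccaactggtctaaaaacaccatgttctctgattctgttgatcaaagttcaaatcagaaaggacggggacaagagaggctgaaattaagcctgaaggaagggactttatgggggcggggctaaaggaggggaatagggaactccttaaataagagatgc
The site of Cpa3 reads AGATAA and that of Mcpt4 TGATAA, each on the strand of the gene. In Cma1 the site lies on the opposite strand, and in Hdc it reads TGATAG and lies farther from the start than in the other 3 genes.

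Total counts ranged from 1624325 to 6295575 in NS, from 867219 to 14055206 in AK and from 775750 to 7095102 in cSCC, so that 3 counts correspond to 0.225 to 3.78 CPM, the count of a gene relative to its library's total as scaled by TMM. Among the cSCC samples, 2 libraries stood apart. In cSCC replicate 20, summed CPM of 6 lung markers (such as Sftpc, of surfactant) was 35805, against at most 51.7 in any other sample. In cSCC replicate 21, summed CPM of 6 heart muscle markers (such as Actc1) was 56271, against at most 156 in any other sample. The lung genes Sftpc and Scgb1a1 and the heart genes Actc1, Pln, Tnnc1, Tnnt2 and Tnni3 were called higher in cSCC against NS and against AK, and the heart gene Myh6 against AK, by edgeR. Without replicate 20, Sftpc was not called (log2 fold change -0.92 against NS and -0.67 against AK), and Scgb1a1 was at -4.31 and -3.11. Without replicate 21, the log2 fold changes of the heart genes lay between 1.31 and 3.32, and those of Actc1, Pln, Tnnc1 and Myh6 against AK and of Tnni3 against both groups were not called. Keratinocyte markers were present in every sample, at a summed CPM of 3703 to 18850. The lowest sums were those of cSCC replicates 21 (3703) and 20 (5054). The lowest sum in NS was 7123 and that in AK 8910. Results are therefore given with all 4 cSCC samples and, where the call or direction changed, without replicates 20 and 21.

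Per kilobase of exon, the chymase gene Cma1 and the carboxypeptidase gene Cpa3 were the most abundant of the 10 genes in all 3 groups. In NS the order by mean level per length was Cma1 at 183 ± 178 CPM per kb (SD, n = 8), Cpa3 at 105 ± 111, Fcer1a at 23.9 ± 25.1, Mcpt4 at 18.1 ± 11.8, Tpsb2 at 15.8 ± 12.4, Ms4a2 at 5.54 ± 6.11 and Tpsab1 at 4.61 ± 6.23. The last 3 were Hdc at 1.05 ± 0.967, Kit at 0.870 ± 0.621 and Gata2 at 0.811 ± 0.489 CPM per kb. Each gene differed from its neighbour in this order by less than the SD of the higher gene. In cSCC (n = 4), Cma1 and Cpa3 were again at the head, with 133 ± 156 and 62.7 ± 65.7 CPM per kb. Tpsab1 stood at rank 3 in cSCC with 45.9 ± 35.2 CPM per kb, compared with rank 7 in NS and rank 5 in AK. Hdc stood at rank 7 in cSCC with 11.2 ± 5.62 CPM per kb, compared with rank 8 in NS and rank 9 in AK.

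**Figure D1:**
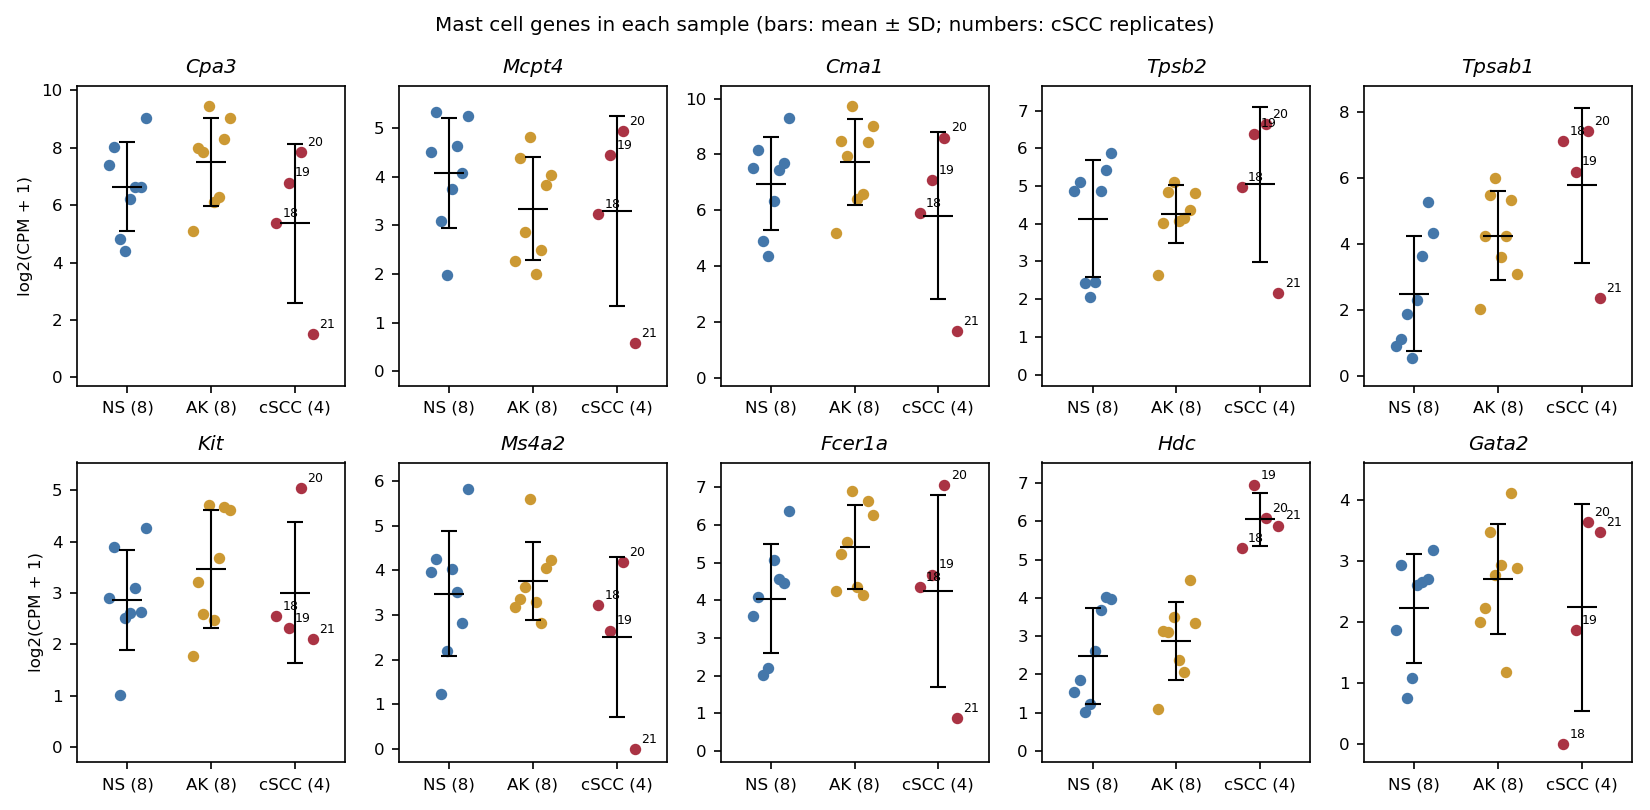
Level of each gene as log2(CPM + 1) in the 8 NS, 8 AK and 4 cSCC samples, with bars for mean ± SD and numbers for the cSCC replicates. Hdc is the gene whose 4 cSCC points all lie above the NS and AK points, while cSCC replicate 21 is at the bottom for Cpa3, Cma1 and Mcpt4.

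The carboxypeptidase gene Cpa3 ranged widely within every group. Its CPM was 20.2 at the lowest, 98.8 at the median and 527 at the highest in NS, and 33.0, 243 and 702 in AK. In cSCC it was 40.3 in replicate 18, 109 in replicate 19, 229 in replicate 20 and 1.82 in replicate 21. The NS and AK ranges overlapped for most of their length, and cSCC replicate 21 lay below every other sample. The chymase gene Cma1 followed Cpa3 closely, with a lowest, median and highest CPM of 19.3, 177 and 625 in NS and of 35.2, 299 and 860 in AK. Its CPM in cSCC replicates 18 to 21 was 58.3, 134, 388 and 2.15. Again replicate 21 was the lowest of all 20 samples and the other 3 cSCC samples lay within the NS range. Mcpt4, the other chymase gene, was 2.92, 18.7 and 39.1 CPM at the lowest, median and highest in NS, and 3.02, 9.75 and 27.1 in AK. In cSCC it was 8.34, 20.7, 29.6 and 0.496 CPM in replicates 18 to 21. Mcpt4 was the only protease gene of the 5 besides Tpsb2 whose mean was lower in AK than in NS, and neither difference passed the test. The lowest Mcpt4 value, in cSCC replicate 21, rests on 3 counts.

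The tryptase genes reached their highest values in cSCC. Tpsb2 had a lowest, median and highest CPM of 3.15, 28.3 and 57.2 in NS and of 5.24, 18.3 and 33.4 in AK. In cSCC replicates 18 to 21 it was 30.6, 83.0, 99.0 and 3.47 CPM. Replicates 19 and 20 were above all NS and AK samples, and replicate 21 was near the bottom of NS and below every AK sample. Tpsab1 had a lowest, median and highest CPM of 0.450, 3.33 and 37.7 in NS and of 3.07, 17.9 and 63.6 in AK. In cSCC replicates 18 to 21 it was 138, 72.1, 171 and 4.13 CPM. Here 3 of the 4 cSCC samples were above all NS and AK samples, while replicate 21 lay inside both ranges. The Tpsb2 and Tpsab1 transcripts shared 0.557% and 0.419% of their 31-base words, with a longest identical run of 39 bases, so that few reads could be shared between them. The authors' handling of such reads is not given in the sources used here.

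The receptor genes overlapped between all groups. Fcer1a had a lowest, median and highest CPM of 3.05, 18.5 and 80.9 in NS and of 16.6, 41.0 and 117 in AK, and was 19.4, 24.6, 131 and 0.827 CPM in cSCC replicates 18 to 21. The highest and the lowest Fcer1a of all 20 samples were thus both cSCC. Ms4a2 had a lowest, median and highest CPM of 1.36, 12.5 and 55.5 in NS and of 6.07, 10.3 and 47.5 in AK. In cSCC replicates 18 to 20 it was 8.34, 5.27 and 17.1 CPM, and replicate 21 had 0 counts, which allows a level of up to 0.496 CPM. Apart from replicate 21, all cSCC values lay within the NS range. Kit had a lowest, median and highest CPM of 1.02, 5.84 and 18.1 in NS and of 2.39, 10.03 and 25.2 in AK, and was 4.86, 3.95, 31.9 and 3.31 CPM in cSCC replicates 18 to 21. One cSCC sample, replicate 20, was the highest of all and the other 3 were below the NS median. Kit, shared with melanocytes, stood beside a summed CPM of 6 melanocyte markers (such as Dct and Tyrp1) of 17.1 to 146 in NS, 11.4 to 43.1 in AK and 0 to 66.0 in cSCC. Its part in the Kit level was not tested.

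Hdc, which encodes the histamine-forming enzyme, was the only one of the 10 genes whose cSCC values lay wholly above those of NS and AK. Its CPM was 1.02 at the lowest, 3.84 at the median and 15.2 at the highest in NS, and 1.12, 7.69 and 20.98 in AK. In cSCC replicates 18 to 21 it was 38.2, 122, 67.1 and 58.2 CPM, from 55, 278, 59 and 352 counts. All 4 cSCC samples lay above all 16 others, replicate 21 included, in which Cpa3, Cma1 and Mcpt4 were at their lowest. Gata2, the transcription factor, showed no such order. It was 0.678, 5.17 and 8.09 CPM at the lowest, median and highest in NS and 1.28, 6.12 and 16.2 CPM in AK. In cSCC replicates 19 to 21 it was 2.64, 11.4 and 10.1 CPM, and replicate 18 had 0 counts, which allows up to 2.08 CPM. The 3 groups overlapped. Gata2 is also used by endothelial cells, whose 7 markers summed to 41.1 to 104 CPM in NS, 42.5 to 104 in AK and 112 to 640 in cSCC. Their part in the Gata2 level was not tested.

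AK was compared with NS to ask which genes differ at the precancerous stage. None of the 10 mast cell genes was called (0 of 10, against 4.64% of 11677 genes tested, 2.26% higher and 2.38% lower), where a call means an adjusted p under 0.05 by edgeR's quasi-likelihood test with Benjamini-Hochberg adjustment and a fold over 1.5 or under 0.67. At an unadjusted p under 0.05 the edgeR count was also 0, and DESeq2 and limma voom each called 0 of 10. The median log2 fold change of the 10 genes was 0.58, beside -0.04 over all genes tested. The largest differences were those of Tpsab1, with a log2 fold change of 1.36 (95% interval -0.19 to 2.90), and of Fcer1a, with 1.15 (95% interval -0.04 to 2.33). For Fcer1a the adjusted p was 0.218 by edgeR, and it was 0.0495 without NS replicate 9 (log2 fold change 1.77), within a range of 0.0495 to 0.440 over its 22 alternatives. The intervals for the protease genes were wide. That of Cpa3 ran from -0.53 to 2.10 around 0.78, that of Cma1 from -0.65 to 1.98 around 0.67, that of Mcpt4 from -1.83 to 0.26 around -0.79 and that of Tpsb2 from -1.42 to 0.68 around -0.37. Kit had a log2 fold change of 0.74 (-0.32 to 1.80), Gata2 of 0.50 (-0.56 to 1.56), Hdc of 0.19 (-1.06 to 1.44) and Ms4a2 of -0.02 (-1.19 to 1.15). Differences inside these intervals were not told apart from 0. In bulk tissue, fewer cells of a type and less RNA per cell cannot be told apart.

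In cSCC compared with NS, Hdc and Tpsab1 rose, 2 of 10 genes, where 11.7% of 12097 genes tested were called higher and 19.3% in either direction. No gene of the 10 was called lower, where 7.65% of all genes were. Mean Hdc was 6.73 ± 6.18 CPM in the 8 NS samples and 71.4 ± 35.9 CPM (mean ± SD) in the 4 cSCC samples. The log2 fold change was 3.45 ± 0.64 (SE), a 10.9-fold rise, with an adjusted p of 0.00377 by edgeR. All 4 cSCC samples were above all 8 NS samples, as held for 2.7% of all genes. Mean Tpsab1 was 96.1 ± 73.7 CPM in cSCC and 9.64 ± 13.1 CPM in NS, a log2 fold change of 3.36 ± 0.97 (SE) and an adjusted p of 0.0275 by edgeR. It was higher than every NS sample in 3 of 4 cSCC samples. The Tpsab1 call was lost without NS replicate 4 (adjusted p 0.0510), without NS replicate 6 (0.0502) or without cSCC replicate 20 (0.0687), and held without cSCC replicates 20 and 21 (0.0381), within a range of 0.00285 to 0.0687 over its 19 alternatives in edgeR, DESeq2 and limma voom. The Hdc call held in each of the 19 alternatives in which it could be tested, including the one without cSCC replicates 20 and 21 (log2 fold change 3.59, adjusted p 0.0112), with adjusted p values from 1.06e-05 to 0.0127 by these tools.

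For the other 8 genes, cSCC and NS were not told apart. Tpsb2 had a log2 fold change of 1.14 (95% interval -0.54 to 2.82) and Fcer1a of 0.91 (-1.06 to 2.89). Kit had 0.47 (-1.08 to 2.03) and Gata2 0.53 (-1.14 to 2.20). Below 0 were Cpa3 at -0.69 (-2.71 to 1.34), Mcpt4 at -0.45 (-2.11 to 1.22), Cma1 at -0.39 (-2.45 to 1.68) and Ms4a2 at -1.10 (-3.28 to 1.07). Each of these 8 intervals included 0. Without cSCC replicates 20 and 21 the values of Kit, Fcer1a and Gata2 turned to -0.80, -0.08 and -1.54. The median of the 10 genes was 0.50, beside 0.15 over all genes tested.

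cSCC was set against AK to ask which genes differ between the carcinoma and its precursor lesion. Hdc alone of the 10 genes passed the test, where 24.4% of 12032 genes were called and 16% were called higher. Its mean in the 8 AK samples was 8.04 ± 6.09 CPM, and the difference was a log2 fold change of 3.32 ± 0.55 (SE), or 9.99-fold, with an adjusted p of 0.00242 by edgeR. All 4 cSCC samples were above all 8 AK samples, as held for 3.33% of all genes. The call held in each of 19 alternatives by the 3 tools, including the one without cSCC replicates 20 and 21 (log2 fold change 3.48, adjusted p 0.00474), with adjusted p values from 8.53e-07 to 0.00654. No gene was called lower, where 8.34% of all genes were.

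Both tryptase genes had intervals above 0 in this comparison but missed the adjusted threshold in edgeR. Tpsab1 had a log2 fold change of 2.00 (95% interval 0.39 to 3.61, adjusted p 0.0656) and Tpsb2 of 1.52 (0.24 to 2.79, adjusted p 0.0763). Tpsab1 was called by DESeq2 (adjusted p 0.0321), by limma voom (0.0448), with at least 10 counts in every sample (0.0470), without AK replicate 13 (2.39, 0.0422) and without cSCC replicate 21 (2.37, 0.0200), within a range of 0.0200 to 0.182 over 20 alternatives. Tpsb2 was called by DESeq2 with all samples (adjusted p 0.0478). By edgeR it was called without cSCC replicate 21 (1.86, 0.0115) and without cSCC replicates 20 and 21 (1.61, 0.0460). Its adjusted p ranged from 0.0115 to 0.248 over 20 alternatives. The carboxypeptidase and chymase genes pointed the other way or near 0. Cpa3 had a log2 fold change of -1.46 (-3.48 to 0.56), Cma1 of -1.05 (-3.08 to 0.98) and Mcpt4 of 0.37 (-1.29 to 2.02). Ms4a2 was at -1.08 (-2.93 to 0.77), Kit at -0.27 (-1.90 to 1.35), Fcer1a at -0.24 (-2.04 to 1.57) and Gata2 at 0.07 (-1.59 to 1.73). None of these 7 passed the test. The median of the 10 genes was -0.08, beside 0.17 over all genes tested.

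**Figure D2:**
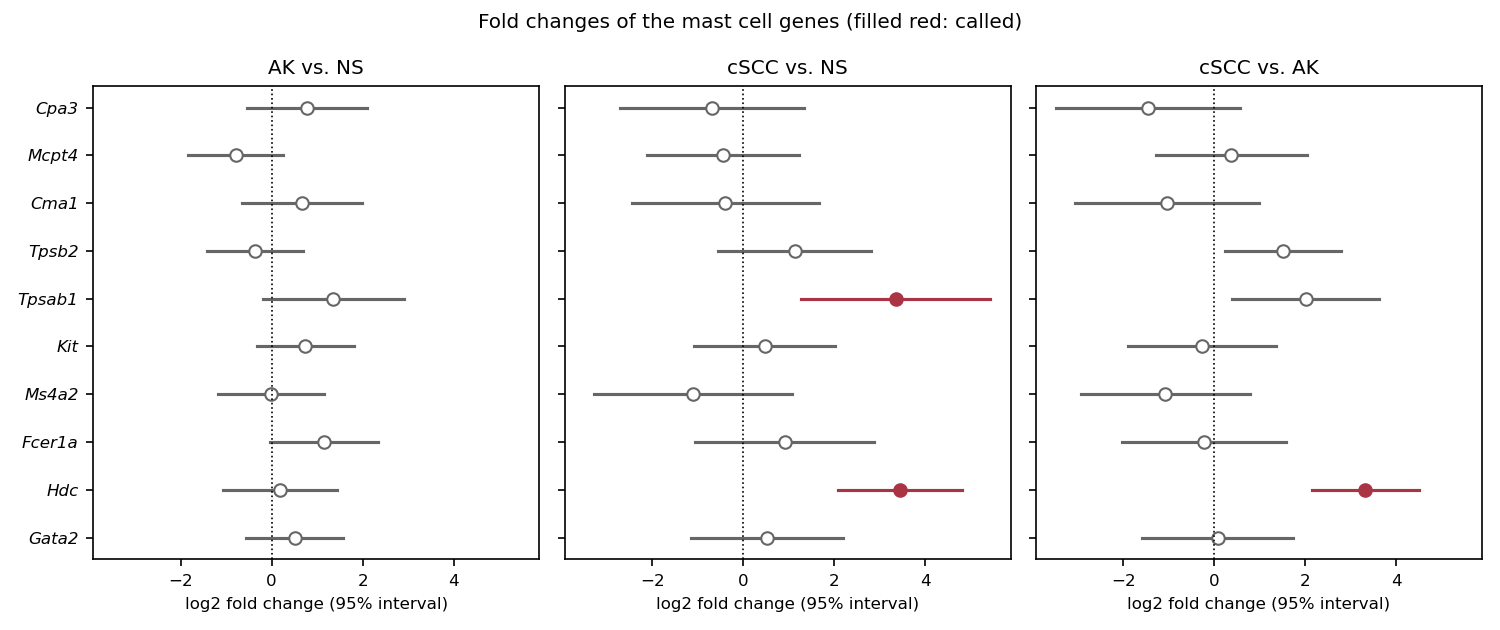
Log2 fold change with its 95% interval for each of the 10 genes in the 3 comparisons; filled red points are called, open points are not. Hdc is called in both comparisons with cSCC, at 3.45 and 3.32, Tpsab1 only against NS, and no gene in AK against NS.

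The ratio of one gene to another within a sample does not depend on the scaling of that sample. The ratio of Cma1 to Cpa3 stayed narrow, from 0.956 to 2.06 in NS, from 0.981 to 1.42 in AK and from 1.18 to 1.70 in cSCC. In contrast, the ratio of Hdc to Cpa3 was 0.0100 to 0.154 in NS and 0.0146 to 0.0659 in AK, and 0.948, 1.12, 0.294 and 32.0 in cSCC replicates 18 to 21. The cSCC ratios were thus all above the NS and AK ratios. The ratio of Tpsab1 to Tpsb2 had a median of 0.366 in NS (0.0311 to 0.905), 1.12 in AK (0.280 to 1.97) and 1.46 in cSCC (0.868 to 4.50), and the groups overlapped. The ratio of Mcpt4 to Cpa3 was 0.0707 to 0.275 in NS, 0.0272 to 0.116 in AK and 0.129 to 0.273 in cSCC. Here AK and cSCC did not overlap, and NS overlapped both. These ratios were chosen with the values known and were not tested.

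**Figure D3:**
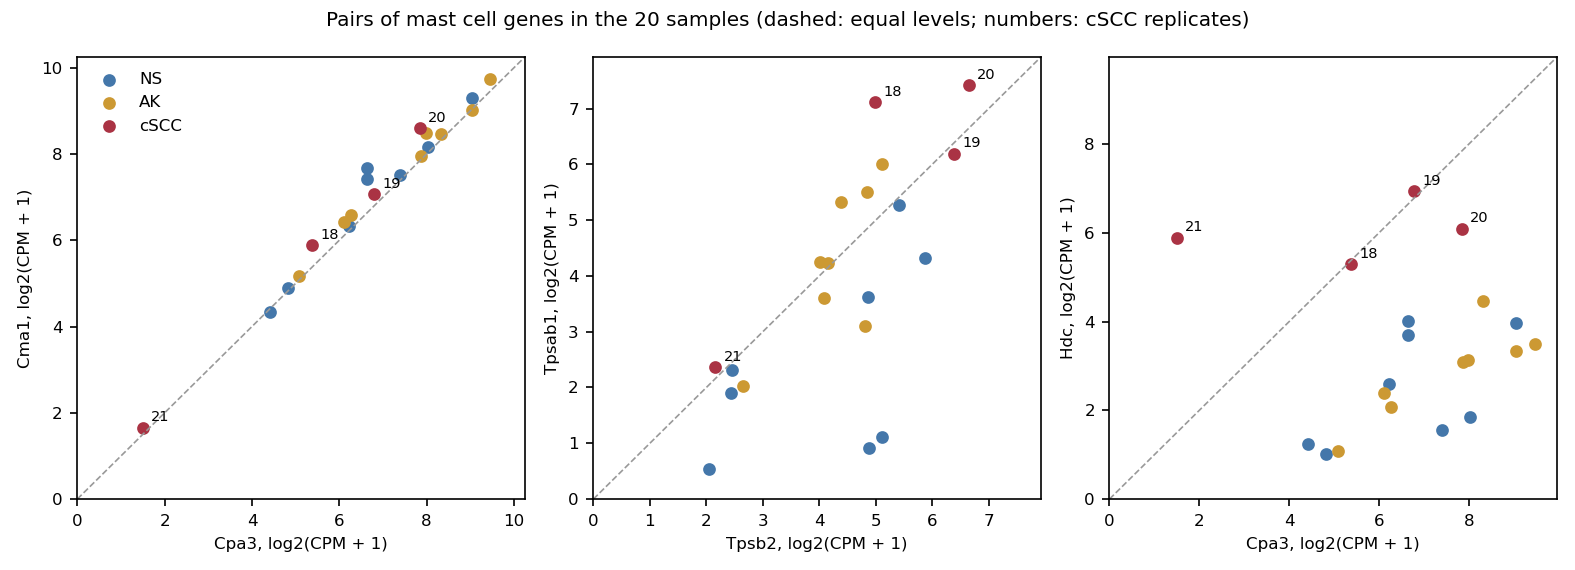
Pairs of genes as log2(CPM + 1) in the 20 samples, with a dashed line of equal levels and numbers for the cSCC replicates. Cma1 and Cpa3 lie along the line in every sample, whereas Hdc in cSCC lies far above the NS and AK points at the same Cpa3.

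Across the 8 NS samples, which the labels do not tie to mice but which the study's methods place one to a mouse, Cpa3 varied together with most of the other genes. Of 9 correlations of log2(CPM + 1) tested, 7 passed an adjusted p of 0.05 in an exact two-sided permutation test of Pearson's r. The share of all genes that would pass with Cpa3 was not computed, so this count does not set these genes apart from others. That with Cma1 had r = 0.97 (n = 8, exact permutation p = 7.44e-05, adjusted 6.70e-04) and Spearman's rho = 0.98 (exact permutation p = 3.97e-04), and r = 0.94 without the 2 samples farthest from the median, NS replicates 5 and 9. That with Mcpt4 had r = 0.94 (exact permutation p = 6.94e-04, adjusted 0.00313), rho = 0.90 (exact permutation p = 0.00456) and r = 0.95 without those samples. High and low samples were thus nearly the same for these 3 proteases. Ms4a2, Tpsb2, Kit and Gata2 had r = 0.91, 0.87, 0.85 and 0.84 with adjusted exact permutation p of 0.00603, 0.00603, 0.0150 and 0.0150, and r of 0.85, 0.77, 0.95 and 0.72 without NS replicates 5 and 9. Fcer1a had r = 0.81 (adjusted exact permutation p = 0.0214), but rho = 0.52 (exact permutation p = 0.197) and r = 0.50 without those samples, so that its relation rested on them. Hdc had r = 0.54 (exact permutation p = 0.171, adjusted 0.192) and Tpsab1 r = 0.36 (exact permutation p = 0.371, adjusted 0.371), and these were the 2 genes that did not pass. Without NS replicate 9, whose mast cell genes were the highest of the group for Cpa3, Cma1, Tpsb2, Kit, Ms4a2, Fcer1a and Gata2, 4 relations passed, those of Mcpt4, Cma1, Tpsb2 and Ms4a2. Whether these NS samples were irradiated is not in the labels, so the relation could not be recomputed within each arm.

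In AK the relations are given as a description, since the 8 samples came from 4 mice. There r with Cpa3 was 0.99 for Cma1, 0.93 for Fcer1a, 0.89 for Mcpt4, 0.86 for Hdc, 0.85 for Tpsb2, 0.82 for Kit, 0.81 for Ms4a2, 0.65 for Tpsab1 and 0.50 for Gata2. Over all 45 pairs of the 10 genes, the median r was 0.788 in NS and 0.740 in AK. In NS, 41 of 45 pairs had r above 0.5, and the share among pairs of other genes was not computed. The lowest r in NS was that of Tpsab1 with Kit, at 0.21. Tpsab1 and Hdc, which did not pass with Cpa3 in NS, had r = 0.92 with each other in NS and 0.72 in AK. This pair was picked with its values known and was not tested.

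The 10 other genes most like the mast cell genes were found by Pearson's r between deviations from group means and the mean of the 10 genes' standardised deviations, over 20 samples and 12839 genes. They were Wfdc17 (r = 0.94), Ms4a6b (0.94), Ccl6 (0.91), Mrc1 (0.90), Ms4a6d (0.90), Cxcl13 (0.88), Ms4a6c (0.88), Srgn (0.88), Ifi204 (0.87) and Ms4a4a (0.87). Mrc1 encodes the mannose receptor of macrophages, Ccl6 a chemokine of myeloid cells, Cxcl13 a B cell chemokine and Srgn the granule proteoglycan serglycin. The points of such an r share the library and its scaling.

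Other genes of mast cell granules, receptors and signalling were counted in lists. Of 8 granule matrix and amine storage genes, 0 were called in AK against NS by edgeR (1 at an unadjusted p under 0.05), 1 by DESeq2 and 2 by limma voom. Srgn, whose product binds granule proteases, rose and Rab27b, a small GTPase of granule docking, fell in cSCC against NS, with log2 fold changes of 2.45 (adjusted p 0.00666) and -1.87 (adjusted p 0.0173) by edgeR. These were 2 of 8 genes, where 19.3% of all genes were called. Against AK, where 24.4% of all genes were called, Srgn was at 1.34 (adjusted p 0.0316) and Rab27b at -1.98 (adjusted p 0.00812) by edgeR. The Srgn call against AK was lost in 10 of 20 alternatives, among them those without cSCC replicate 19 (1.35, adjusted p 0.0520) or 20 (0.89, 0.139) and those without any 1 of AK replicates 10, 11, 12, 14, 15 or 17. Srgn CPM was 522, 509, 942 and 133 in cSCC replicates 18 to 21, compared with 40.7 to 224 in NS and 97.2 to 372 in AK, and Rab27b was 104, 61.1, 53.5 and 10.3, compared with 133 to 320 in NS and 138 to 378 in AK. The Rab27b values in cSCC were all below those of NS and AK, and those of Srgn overlapped with both. Of all genes tested, 5.73% had all cSCC values below NS, and 6.84% had them all below AK. Neither gene is restricted to mast cells.

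Of 7 further mast cell receptor genes tested (Fcer1g, Il1rl1, Mrgprb1, Mrgprb2, Adora3, Cysltr1 and Cd33), Cd33 alone was called by edgeR. It encodes an inhibitory lectin of myeloid cells, and rose in cSCC by 2.89 on the log2 scale against NS (adjusted p 0.00322) and 2.25 against AK (adjusted p 0.00793) by edgeR. Cd33 CPM was 9.72, 38.2, 51.2 and 13.6 in cSCC replicates 18 to 21. It was 1.70 to 8.11 in NS and 1.57 to 10.2 in AK. The cSCC samples thus lay above NS, as held for 2.7% of all genes, and overlapped with AK. Of 11 genes of FcεRI signalling, Lyn, the kinase next to the receptor, rose in cSCC against NS by 1.35 (adjusted p 0.0363 by edgeR), and lost the call without any 1 of NS replicates 1, 4, 5 or 7 or of cSCC replicates 19 or 20. No other gene of this list was called in any comparison, with 0 of 11 called and 0 at an unadjusted p under 0.05 in AK against NS by edgeR, and 0 by DESeq2 and limma voom. Of 5 genes of prostaglandin D2 and leukotriene synthesis, Ptgs1 fell in cSCC against NS by 1.25 on the log2 scale (adjusted p 0.0271 by edgeR), and was not called without cSCC replicate 20 (0.0593) or 21 (0.0664). Hpgds, the haematopoietic prostaglandin D synthase, fell in cSCC against AK by 1.99 on the log2 scale (adjusted p 0.0206 by edgeR), and was not called without cSCC replicate 19 (0.0515).

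Among 10 genes of factors that attract or feed mast cells, 5 were tested. In AK against NS, Vegfa and Ccl11 each rose by 1.60 on the log2 scale (adjusted p 0.0184 and 0.0326) and Il33, an alarmin that acts on mast cells through Il1rl1, by 1.11 (adjusted p 0.0190), by edgeR. Il33 was 192 to 307 CPM in AK and 56.0 to 203 CPM in NS, with a narrow overlap. Ccl11, the eosinophil chemokine eotaxin, lost its call without any 1 of NS replicates 1, 2, 4 or 5 or of AK replicates 12, 13 or 16, and none of the 3 was called when all 20 samples were fitted together (adjusted p 0.152 for Il33, 0.0883 for Vegfa and 0.203 for Ccl11). In cSCC against NS, Vegfa rose by 2.998 (adjusted p 0.00250 by edgeR). Kitl, the ligand of Kit, had log2 fold changes of 0.17 (AK vs. NS), 0.88 (cSCC vs. NS) and 0.76 (cSCC vs. AK) and was not called. Of 4 further mast cell transcription factors, 3 were tested in AK against NS (Mitf, Tal1 and Runx1), and none was called in any comparison, with 0 of them at an unadjusted p under 0.05 by edgeR and 0 called by DESeq2 or limma voom.

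Neutrophils also use Hdc, and some of their markers were higher in cSCC. Of 6 neutrophil markers, Csf3r and Cxcr2 rose in cSCC against NS, by 3.41 (adjusted p 0.0137) and 1.78 (adjusted p 0.0307) on the log2 scale, and Csf3r, Cxcr2, S100a8 and S100a9 rose against AK, by 3.78, 1.37, 1.97 and 2.25 (adjusted p 0.00234, 0.0112, 0.0165 and 0.00622), by edgeR. The call of Cxcr2 against NS was lost without any 1 of NS replicates 2, 5 or 6 or of cSCC replicates 19 (1.42, adjusted p 0.113) or 20 (1.66, 0.0637), that against AK without cSCC replicate 19 (1.01, 0.0520), and that of S100a8 against AK without cSCC replicate 18 (0.82, 0.169). By edgeR, S100a8, S100a9, Retnlg and Ly6g were not called against NS, nor Retnlg and Ly6g against AK. DESeq2 and limma voom each called 4 of the 6 markers against NS. Against AK they called 4 and 3. Ly6g, a marker of mature neutrophils, was at 7.28 to 15.9 CPM in cSCC, 0.339 to 17.7 CPM in NS and 6.59 to 17.999 CPM in AK, with log2 fold changes of 0.89 (adjusted p 0.373) against NS and 0.13 (adjusted p 0.821) against AK by edgeR. Csf3r was at 10.2 to 31.8 CPM in cSCC, 0 to 8.30 CPM in NS and 0 to 3.62 CPM in AK. Its cSCC values thus all lay above NS and AK, like those of Hdc. The same held for 2.7% of all genes against NS and 3.33% against AK. The cSCC values of the other neutrophil markers overlapped with both groups. None of the 6 was at 0 in a cSCC sample. Summed CPM of the 6 was 78.9 to 5782 in NS, 631 to 3069 in AK, and 14701, 3194, 3700 and 2147 in cSCC replicates 18 to 21. Most of this sum was S100a8 and S100a9, with cSCC means of 2345 and 3373 CPM, against at most 126 CPM for any other marker of the 6. The sum therefore says little about the other markers. Summed CPM of 4 basophil markers (Mcpt8, Cd200r3, Prss34 and Ccr3) was 0 to 28.6 in NS, 5.24 to 111 in AK and 1.32 to 100 in cSCC, and no basophil marker was called (0 by edgeR, DESeq2 and limma voom in each comparison, with 2 of 2 tested in AK against NS, 0 of 1 in cSCC against NS and 0 of 2 in cSCC against AK at an unadjusted p under 0.05). Mcpt8, the basophil protease, had log2 fold changes of 2.11 (AK vs. NS), 2.41 (cSCC vs. NS) and 0.26 (cSCC vs. AK). The part of neutrophils and basophils in the Hdc level was not tested.

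**Figure D4:**
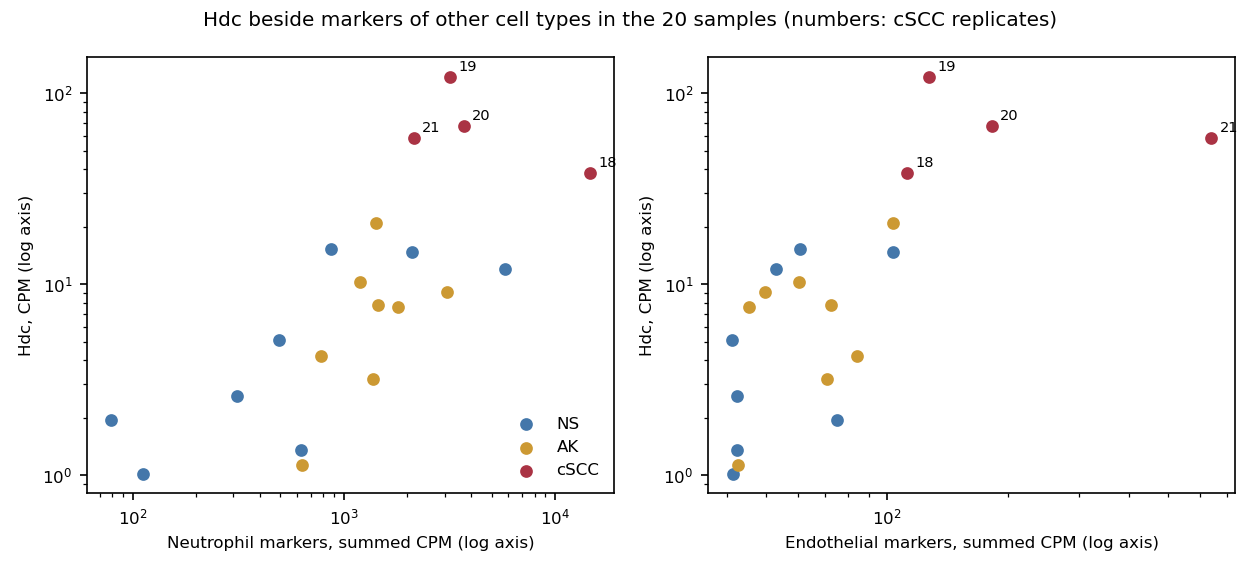
Hdc in CPM against summed CPM of 6 neutrophil markers (left) and of 7 endothelial markers (right) in the 20 samples, all axes on a log scale, with numbers for the cSCC replicates. The 4 cSCC samples lie between 38.2 and 122 CPM of Hdc, above all NS and AK samples, at neutrophil sums from 2147 to 14701.

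Endothelial markers also rose in cSCC, 6 of 7 against NS and 7 of 7 against AK by edgeR, with a summed CPM of 112, 127, 182 and 640 in replicates 18 to 21. The largest sum was in replicate 21, which held the heart muscle genes, and calls of Kdr, Flt1, Emcn and Pecam1 were lost in both comparisons without it, as were those of Tek, Tie1 and Cdh5 against AK. Keratinocyte differentiation genes Krt1, Krt10 and Lor fell in cSCC against both groups, although the calls of Krt1 were lost without cSCC replicate 19 (adjusted p 0.0547 and 0.0543) or 20 (0.0576 and 0.0610) and that of Krt10 against AK without replicate 20 (0.0541). Lor fell in AK against NS by 1.71 on the log2 scale (adjusted p 0.0170 by edgeR). Dct, a melanocyte gene, fell in AK against NS by 1.70 (adjusted p 0.0190 by edgeR). Dermal fibroblast markers summed to 1021 to 7692 CPM in NS, 1124 to 4607 in AK and 1265 to 5448 in cSCC, and of the 6 only Col1a1 was called, in cSCC against AK (1.23, adjusted p 0.0485 by edgeR), a call lost in 13 of 20 alternatives. The pan-leukocyte gene Ptprc was not called by edgeR in any of the 3 comparisons (log2 fold changes 0.66, 0.11 and -0.52). In AK against NS its adjusted p was 0.0843 by edgeR, and limma voom called it there. DESeq2 called it in no comparison.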

How the data were processed

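RNA-seq of 20 mouse skin tissues was examined, and each sample was assigned to NS, AK or cSCC from its label. Following the paper's methods, reads were trimmed with Trimmomatic, aligned with HISAT2 to GRCm38 and quantified with StringTie. The submitters' processing notes instead list Trimmomatic 0.36, HISAT2 2.0.5 and featureCounts 1.5.2 with the builds mm9 and hg19. The strand setting and annotation are not given in the sources used here, so reads of genes that overlap on opposite strands cannot be told apart. Of the 10 genes, Cpa3 alone overlaps another annotated gene, a miRNA in GENCODE M21. The authors deposited raw counts per gene symbol, not normalized.

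Counts were analysed with edgeR 4.0.16 (filterByExpr, TMM, glmQLFit and glmQLFTest) on the 2 groups compared, with Benjamini-Hochberg adjustment over all genes tested. A call needed an adjusted p under 0.05 and a fold over 1.5 or under 0.67. Standard errors and 95% intervals follow from the F statistic. CPM were scaled by TMM over 20 samples. Correlations used log2(CPM + 1), exact permutation tests computed with numpy 2.4.6 and ranks from scipy 1.17.1. Levels per length used the exon union of GENCODE M21 on GRCm38. Alternatives were DESeq2 1.42.0, limma 3.58.1 voom with sample weights, library size alone, upper quartile factors, no filter, at least 10 counts in every sample, all 20 samples in 1 fit, no fold limit, a pseudocount of 0.1, leaving out each replicate, and leaving out cSCC replicates 20 and 21. The code was tested on simulated data. The named genes are the 10 members, every gene of the wider lists that was called, and the 10 genes most alike in pattern; other genes are given with values as lists or as examples chosen after their values were seen. The members and lists were chosen with earlier results of these data known. Where counts are 0, 3 counts were taken as the limit, which covers counting error only. p-values measure the spread between samples, some of which share a mouse.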

Additional observations from a re-analysis of the deposited data

Results flagged for a closer look

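Of 30 gene and group combinations, 6 passed Dixon's criterion. In each, the gap of a sample to the nearest other was large relative to the range of its group. For normally distributed values, chance passes it in about 1 in 20 groups. CPM were used without a log and need not be normally distributed, so chance may pass it more often here. NS replicate 9 was such a sample for Cma1 (625 CPM, others 19.3 to 284), for Ms4a2 (55.5 CPM, others 1.36 to 17.96) and for Fcer1a (80.9 CPM, others 3.05 to 32.7). AK replicate 13 was one for Ms4a2 (47.5 CPM, others 6.07 to 17.8) and AK replicate 16 for Hdc (20.98 CPM, others 1.12 to 10.3). cSCC replicate 20, which also held lung genes, was one for Kit (31.9 CPM, others 3.31 to 4.86).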

How the results depend on the processing

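With library size alone in place of TMM, the median log2 fold change of all genes moved from -0.04 to -0.13 in AK against NS, from 0.15 to -0.17 in cSCC against NS and from 0.17 to -0.09 in cSCC against AK, and the share of calls that were higher from 48.7% to 26.8%, from 60.4% to 31.9% and from 65.8% to 43.0%. The Hdc call held with it. Of the 10 genes, 2 were called in cSCC against NS and 0 with at least 10 counts in every sample, a filter that neither Hdc nor Tpsab1 passed. In cSCC against AK 1 was called, 3 by DESeq2, 2 by limma voom and 2 without cSCC replicates 20 and 21. Of the wider lists, 5 genes were called in AK against NS, 10 by DESeq2, 12 by limma voom and 0 with all 20 samples in 1 fit. In cSCC against NS it was 24, with 12 at 10 counts and 13 without cSCC replicates 20 and 21, and in cSCC against AK 28, with 15 by limma voom, 13 at 10 counts and 14 without both replicates. Leaving out 1 replicate gave 0 to 1, 1 to 2 and 1 to 3 of the 10 genes, 4 to 9, 21 to 29 and 18 to 30 of the wider lists, and 4 to 7 correlations with Cpa3. The cause was not tested.

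Directions turned in log2 fold changes that were not called. By limma voom, Tpsb2 was at 0.21 and Ms4a2 at 0.34 in AK against NS, Cpa3 at 0.12 and Cma1 at 0.44 in cSCC against NS, and Gata2 at -0.092 in cSCC against AK. Gata2 in cSCC against AK was -0.10 by library size, -0.18 with no filter, -0.10 with all 20 samples and -1.99 without cSCC replicates 20 and 21. Without both replicates, Kit, Fcer1a and Gata2 were at -0.80, -0.082 and -1.54 in cSCC against NS. Leaving out 1 replicate gave -0.54 to 0.64 for Ms4a2 and -0.17 to 0.46 for Hdc in AK against NS, -1.60 to 0.13 for Cma1, -0.92 to 0.78 for Kit and -0.68 to 1.53 for Fcer1a in cSCC against NS, and -0.54 to 0.41 for Gata2, -1.81 to 0.13 for Fcer1a, -1.62 to 0.0088 for Kit and -0.21 to 0.73 for Mcpt4 in cSCC against AK. No paired analysis was possible because the groups share no replicate numbers and the labels do not give the mouse. The shallowest library, cSCC replicate 20 with 775750 counts, resolved levels only above 3.41 CPM.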

Other observations

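Chymase-like proteases of the mucosal type were measured outside the 10 genes. Mcpt1 and Mcpt2 were at 0 to 1.22 and 0 to 1.83 CPM in NS, 0 to 7.19 and 0 to 18.6 CPM in AK, and 99.3, 2.20, 5.69 and 0 CPM (Mcpt1) and 179, 7.03, 9.10 and 0.165 CPM (Mcpt2) in cSCC replicates 18 to 21. The high values were those of 1 sample, replicate 18, in which Cpa3 was 40.3 CPM. Mcpt1 was called in cSCC against AK (log2 fold change 4.31, adjusted p 0.0397 by edgeR), and was at 0.63 (adjusted p 0.802) without replicate 18. The call was lost in 12 of 20 alternatives.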
